A study of Mus musculus with 17 samples.

Results

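The genes Cd3e, Cd4, Cd8a, Cd8b1, Foxp3, Gzmb, Ms4a1, Cd79a and Cd79b, which mark T and B lymphocytes, were followed across mouse kidneys that express or do not express the fusion protein PRCC‐TFE3. They were chosen by name, with earlier results of these data known, as 9 of the 35971 genes to which the deposited transcripts could be summed. All 9 passed the expression filter of the test. T cells recognise antigen through a receptor that signals through the CD3 chains, and the co-receptors CD4 and CD8 divide them into helper and cytotoxic cells. B cells carry membrane immunoglobulin that signals through CD79A and CD79B. Lymphocytes are rare in the healthy kidney, gather there in inflammation and in renal tumors, and are not a cell type in which the Cre driver used here is active.

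Kidney RNA of 17 mice in 5 groups had been sequenced as stranded mRNA libraries. The control group, Cre(−), held 4 mice with the Cre-inducible lsl-PRCC-TFE3 knock-in allele and no KSP-Cre, of which replicates 1 and 2 also carried floxed HIF1a alleles (HIF1af/f) and replicates 3 and 4 carried no floxed HIF allele. The other groups carried KSP-Cre, in which the Cadherin 16 promoter drives Cre in kidney epithelial cells, together with lsl-PRCC-TFE3, and these were 3 KI mice without a floxed HIF allele, 4 Hif1α KO mice (HIF1af/f), 3 Hif2α KO mice (HIF2af/f) and 3 DKO mice (HIF1af/f and HIF2af/f). Each library is a different mouse, the labels give neither age nor sex, and since the numbering of the libraries mostly runs group by group, their order cannot be told apart from genotype. Cre(−) libraries held 18547274 to 22641506 expected counts, KI libraries 16504419 to 18173319, Hif1α KO libraries 16710464 to 24668827, Hif2α KO libraries 18001108 to 21711031 and DKO libraries 17347474 to 18635282. Levels are given as CPM, counts scaled to library size with TMM factors, and the smallest level taken as detectable, 3 counts, was 0.117 to 0.206 CPM depending on the library, which covers counting error only.

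Hif1a RNA, from the gene floxed in Hif1α KO and DKO mice, stood at 102, 128, 118 and 118 CPM in Cre(−), 228, 232 and 184 in KI, 163, 193, 189 and 198 in Hif1α KO, 170.1, 199 and 256 in Hif2α KO and 188, 174 and 203 in DKO kidneys. For Epas1, which encodes HIF2α, the corresponding CPM were 196, 205, 243 and 257, then 173, 192 and 179, then 163, 169, 166 and 179, then 146, 149 and 136, and 156, 165 and 158 in DKO kidneys. Hif1a differed from its level in KI kidneys by -0.21 (SE 0.13, adjusted p = 0.372) on the log2 scale in Hif1α KO and by -0.19 (SE 0.14, adjusted p = 0.395) in DKO kidneys, and Epas1 by -0.33 (SE 0.09, adjusted p = 0.0788) in Hif2α KO and by -0.18 (SE 0.09, adjusted p = 0.208) in DKO kidneys by edgeR, with SE the standard error of the log2 value, none of these 4 differences past the threshold of 0.05. Relative to Cre(−) kidneys Hif1a was called higher in KI, by 0.88 (SE 0.13, adjusted p = 2.47e-05), in Hif1α KO, by 0.67 (SE 0.12, adjusted p = 0.000172), in Hif2α KO, by 0.84 (SE 0.13, adjusted p = 4.21e-05), and in DKO kidneys, by 0.69 (SE 0.13, adjusted p = 0.000275). Epas1 was called lower than in Cre(−) kidneys in KI, at -0.31 (SE 0.09, adjusted p = 0.0059), in Hif1α KO, at -0.41 (SE 0.08, adjusted p = 0.000412), in Hif2α KO, at -0.65 (SE 0.09, adjusted p = 1.4e-05), and in DKO kidneys, at -0.50 (SE 0.09, adjusted p = 0.000185). Both genes thus differed from Cre(−) kidneys in every group with PRCC‐TFE3 and Cre, including KI, where neither gene was floxed. Reads over the whole gene in a mixture of kidney cells do not show whether the floxed exons were removed, and so they neither check nor contradict these labels. The 6 tubule marker genes, among them Umod and Slc34a1, added up to 16990, 16150, 16240 and 14170 CPM in Cre(−), 2671, 1802 and 2212 in KI, 6760, 3389, 4725 and 4148 in Hif1α KO, 5652, 3073 and 3597 in Hif2α KO and 4397, 6664 and 5703 CPM in DKO kidneys. Kidney tubule RNA was therefore present in every library, at the highest level in the Cre(−) kidneys and at the lowest in the KI kidneys.

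In the mouse build GRCm38, Cd3e lies on chromosome 9 from 44998740 to 45009627, Cd4 on chromosome 6 from 124864692 to 124888221, and the genes of both CD8 chains lie close together on the same chromosome, Cd8b1 from 71322788 to 71337494 and Cd8a from 71373427 to 71379173. Foxp3 lies on chromosome X from 7573644 to 7595245 and Gzmb on chromosome 14 from 56258838 to 56262260. The B cell genes are spread over the genome, with Ms4a1 on chromosome 19 from 11249675 to 11266241, Cd79a on chromosome 7 from 24897381 to 24902197 and Cd79b on chromosome 11 from 106311341 to 106314762, and all 9 are annotated as protein coding. Promoter windows of 300 bases, from 250 bases before to 50 bases after a transcription start, were taken from RefSeq (GRCm38.p6) for the 5 members that had an entry, Cd3e, Cd8a, Foxp3 (with 2 windows), Gzmb and Cd79a, and none was given for Cd4, Cd8b1, Ms4a1 or Cd79b. Since the fusion partner TFE3 binds E-boxes and the knocked-out HIF proteins bind hypoxia response elements, the windows were searched on both strands for the E-box CACGTG, for the hypoxia element core ACGTG and its variant GCGTG, and for GGAAGT, a core bound by ETS-family factors of lymphocytes. CACGTG, within which ACGTG also lies, was found in 7.15% of the 32851 promoter windows in the RefSeq table and in none of the 6 member windows. ACGTG was found in 19.6% of all windows and in that of Cd3e, and GCGTG in 32.4% of all windows and in those of Cd8a, Foxp3 (both windows) and Cd79a. GGAAGT was found in 23.8% of all windows and in those of Cd3e and Cd79a, while the Gzmb window held none of these letters. The Gzmb window, at chr14:56262285-56262584 on the minus strand, was set by a RefSeq start and lies outside the gene span given above. The windows of Cd3e, on the minus strand at chr9:45009562-45009861, and of Cd79a, on the plus strand at chr7:24897247-24897546, are shown because these genes encode signalling chains of the T and B cell receptors. Capitals mark the matches, which in Cd3e are ACGTG and the reverse complement ACTTCC, and in Cd79a the reverse complement CACGC and GGAAGT. A match describes these letters only and is not a bound site.
Cd3e promoter: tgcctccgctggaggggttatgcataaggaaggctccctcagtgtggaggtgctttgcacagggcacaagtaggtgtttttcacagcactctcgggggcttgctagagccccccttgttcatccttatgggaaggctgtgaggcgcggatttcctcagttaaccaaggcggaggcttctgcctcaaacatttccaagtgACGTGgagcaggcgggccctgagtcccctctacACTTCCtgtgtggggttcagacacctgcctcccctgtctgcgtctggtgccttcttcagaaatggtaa
Cd79a promoter: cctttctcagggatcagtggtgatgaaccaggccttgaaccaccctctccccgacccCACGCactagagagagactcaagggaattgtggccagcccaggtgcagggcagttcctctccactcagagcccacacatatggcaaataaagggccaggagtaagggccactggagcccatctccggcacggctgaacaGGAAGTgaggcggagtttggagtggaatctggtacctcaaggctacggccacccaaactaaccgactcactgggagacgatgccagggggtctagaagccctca

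Cd3e encodes the epsilon chain of CD3, which every conventional T cell carries. Levels of Cd3e were 1.30, 1.66, 1.19 and 1.07 CPM without Cre and 2.47, 4.36 and 0.856 CPM in KI mice. They were 5.14, 1.92, 6.18 and 4.45 CPM in Hif1α KO mice, 10.6, 3.85 and 3.44 CPM in Hif2α KO mice and 6.48, 10.8 and 4.59 CPM in DKO mice. The Cre(−) kidneys lay close together and the other groups were spread widely, with KI replicate 3 below every Cre(−) kidney and every knockout kidney of the 3 HIF groups above every Cre(−) kidney. Since whole kidneys were sequenced, fewer cells of a type and less RNA per cell cannot be told apart, here or for any gene below. Cd4 encodes the co-receptor of helper and regulatory T cells and is also transcribed by some myeloid cells. The Cd4 values of the Cre(−) group were 2.33, 1.50, 1.85 and 2.27 CPM, those of the KI group 5.17, 7.65 and 2.51 CPM. Those of the Hif1α KO group were 7.59, 3.63, 13.8 and 10.0 CPM, of the Hif2α KO group 21.5, 6.70 and 5.92 CPM and of the DKO group 10.7, 14.0 and 8.88 CPM. All 13 kidneys with PRCC‐TFE3 and Cre were above all 4 Cre(−) kidneys, although KI replicate 3 cleared the highest of them only narrowly. Cd8a encodes the alpha chain of CD8, found on cytotoxic T cells and on a subset of dendritic cells. Among Cre(−) kidneys Cd8a RNA amounted to 2.67, 3.59, 1.72 and 2.21 CPM, and among KI kidneys to 2.30, 3.55 and 1.54 CPM. With the HIF1α gene knocked out, Cd8a was at 2.57, 1.09, 3.39 and 3.28 CPM, with the HIF2α gene knocked out at 9.20, 4.07 and 2.08 CPM, and with both at 4.09, 6.95 and 3.61 CPM. Cre(−), KI and Hif1α KO kidneys overlapped throughout, and Hif2α KO replicate 1 and DKO replicate 2 held the highest levels. Cd8b1 encodes the beta chain, which is more restricted to T cells than the alpha chain. Levels of Cd8b1 were 0.206, 0.428, 0.331 and 0.758 CPM without Cre and 0.690, 2.26 and 0.399 CPM in KI mice. They were 1.31, 0.519, 1.84 and 0.937 CPM in Hif1α KO mice, 4.84, 2.84 and 1.06 CPM in Hif2α KO mice and 2.19, 3.63 and 1.71 CPM in DKO mice. Here the Cre(−) kidneys reached into the range of the KI and Hif1α KO kidneys, whereas all Hif2α KO and DKO kidneys were above them.

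Foxp3 encodes the transcription factor that defines regulatory T cells. The Foxp3 values of the Cre(−) group were 0.411, 0.482, 0.331 and 0.0631 CPM, those of the KI group 1.15, 1.45 and 0.285 CPM. Those of the Hif1α KO group were 2.09, 1.92, 3.34 and 3.90 CPM, of the Hif2α KO group 3.63, 2.01 and 2.18 CPM and of the DKO group 3.65, 3.11 and 2.00 CPM. KI replicates 1 and 2 were above the Cre(−) kidneys and replicate 3 was among them, while each of the 10 kidneys with a HIF knockout was above each KI kidney. Gzmb encodes granzyme B, a protease of the killing granules of cytotoxic T and NK cells. Among Cre(−) kidneys Gzmb RNA amounted to 0, 0.214, 0.199 and 0.126 CPM, and among KI kidneys to 0.287, 0.538 and 0.114 CPM. With the HIF1α gene knocked out, Gzmb was at 0.119, 0.208, 0.299 and 0.195 CPM, with the HIF2α gene knocked out at 0.734, 0.656 and 0.203 CPM, and with both at 0.536, 0.421 and 0.293 CPM. These levels were near the smallest detectable one in most libraries, a value of 0 in Cre(−) replicate 1 allowing up to 0.206 CPM, and only the DKO kidneys were all above the Cre(−) kidneys.

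Ms4a1 encodes CD20, a surface protein of B cells up to but not including the plasma cell stage. Levels of Ms4a1 were 0.480, 0.428, 1.06 and 0.253 CPM without Cre and 0.920, 12.8 and 0.285 CPM in KI mice. They were 1.61, 0.415, 7.52 and 3.79 CPM in Hif1α KO mice, 10.9, 2.54 and 1.06 CPM in Hif2α KO mice and 6.28, 8.80 and 2.39 CPM in DKO mice. KI replicate 2 was far above the other KI kidneys, which lay within the Cre(−) range, and the Hif1α KO kidneys also reached down to that range. Cd79a encodes the alpha signalling chain of the B cell receptor. The Cd79a values of the Cre(−) group were 0.891, 0.803, 0.993 and 0.316 CPM, those of the KI group 2.70, 19.1 and 1.66 CPM. Those of the Hif1α KO group were 5.26, 2.23, 20.2 and 12.4 CPM, of the Hif2α KO group 20.0, 8.36 and 5.87 CPM and of the DKO group 15.6, 17.9 and 4.69 CPM. All 13 kidneys with PRCC‐TFE3 and Cre were above all Cre(−) kidneys, and within each of the 4 groups the highest kidney exceeded the lowest several times over. Cd79b encodes the beta chain of the same pair. Among Cre(−) kidneys Cd79b RNA amounted to 0.548, 1.12, 1.52 and 1.07 CPM, and among KI kidneys to 2.82, 15.3 and 0.970 CPM. With the HIF1α gene knocked out, Cd79b was at 4.06, 2.44, 13.3 and 6.71 CPM, with the HIF2α gene knocked out at 12.9, 5.78 and 5.47 CPM, and with both at 9.30, 11.4 and 4.25 CPM. KI replicate 3 was among the Cre(−) kidneys, and all HIF knockout kidneys were above them.

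**Figure D1:**
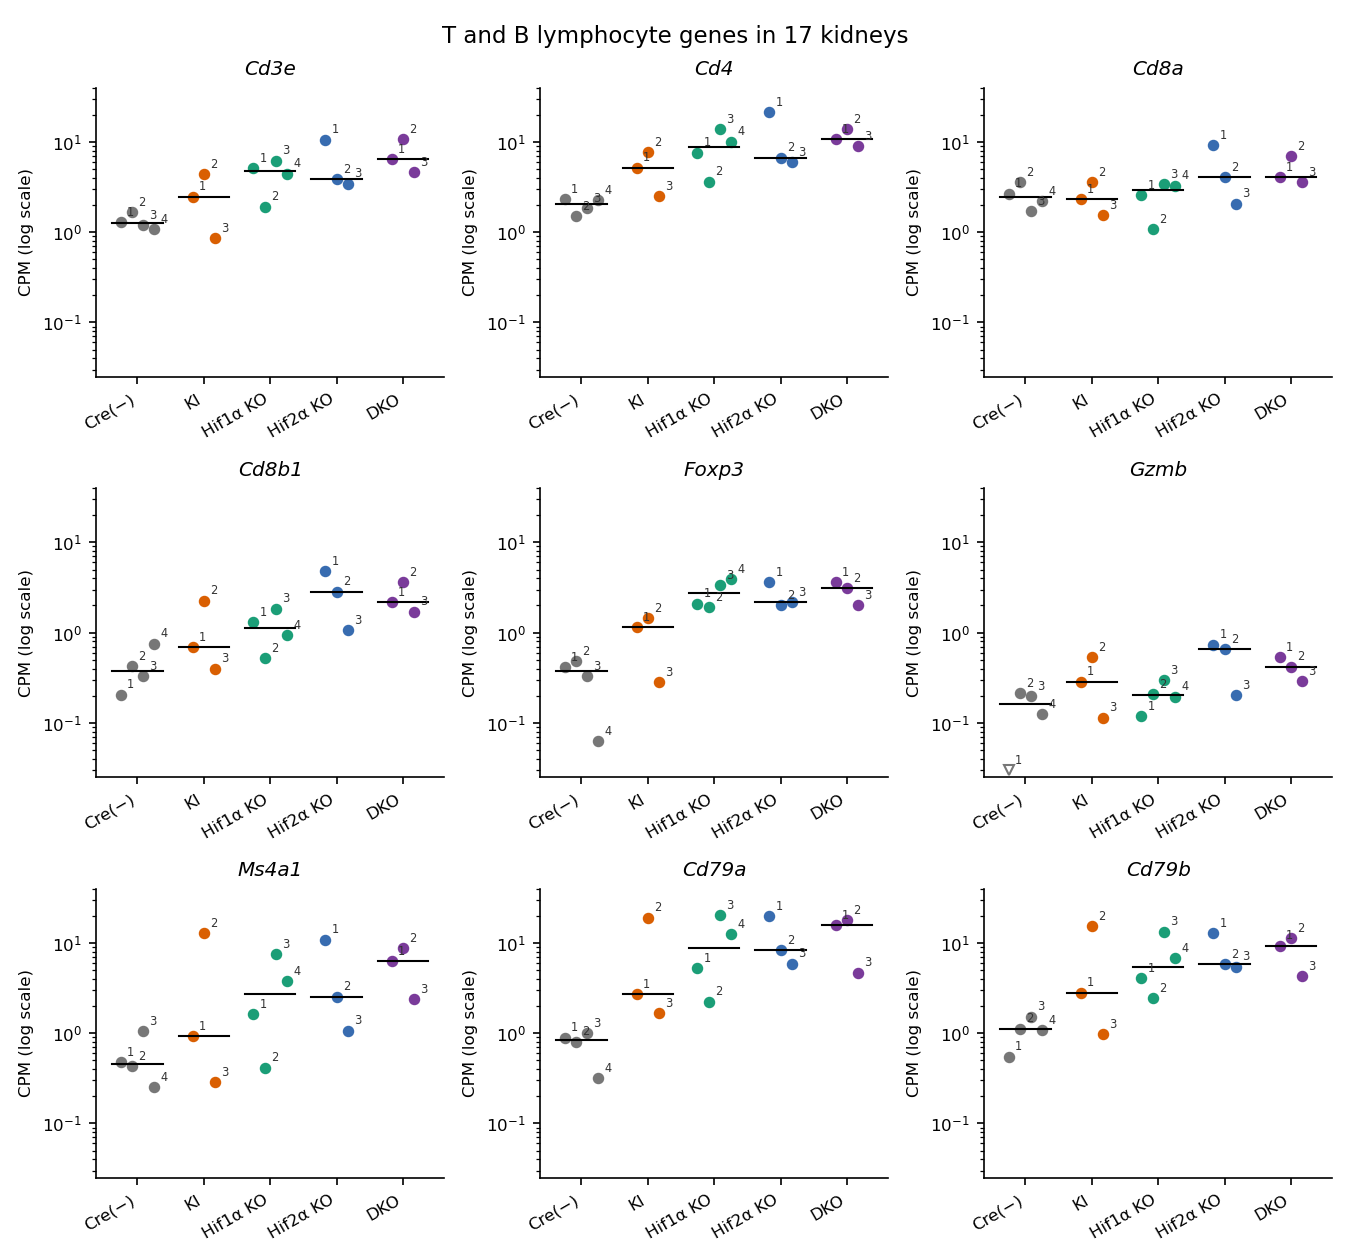
CPM of each of the 9 genes (log scale) in each of 17 kidneys, with replicate numbers beside the points and a bar at the group median. The open triangle marks the Gzmb value of 0 in Cre(−) replicate 1, drawn at the foot of the axis. The Cre(−) kidneys lie together for most genes, and KI replicate 2 stands apart from the other KI kidneys for Ms4a1, Cd79a and Cd79b.

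Levels of different genes were compared as TPM, a unit adjusted for transcript length. In Cre(−) kidneys the mean levels ran from 0.111 ± 0.0828 TPM (SD, n = 4) for Gzmb to 1.05 ± 0.414 TPM (SD, n = 4) for Cd79b, with Cd8a at 0.991 ± 0.401 TPM (SD, n = 4) and Cd3e at 0.981 ± 0.210 TPM (SD, n = 4). In KI kidneys the order was led by Cd79b at 8.85 ± 10.9 TPM (SD, n = 3) and Cd79a at 8.77 ± 11.1 TPM (SD, n = 3), and Cd3e followed at 2.88 ± 1.70 TPM (SD, n = 3). The spread within KI kidneys exceeded these differences between neighbours in the order. The means of Cd79b and Cd79a rested largely on KI replicate 2, with 21.4 and 21.55 TPM. KI replicates 1 and 3 had 3.93 and 1.23 TPM for Cd79b and 3.06 and 1.70 TPM for Cd79a. In KI replicate 3 Cd4, at 1.34 TPM, and Cd3e, at 1.31 TPM, were above Cd79b. Cd79a had 10.8 ± 8.61 TPM (SD, n = 4) in Hif1α KO, 12.7 ± 7.90 TPM (SD, n = 3) in Hif2α KO and 14.6 ± 7.94 TPM (SD, n = 3) in DKO kidneys. Cd3e had 4.70 ± 1.91 TPM (SD, n = 4), 6.61 ± 4.00 TPM (SD, n = 3) and 8.07 ± 3.41 TPM (SD, n = 3) in the same groups. By mean TPM, both signalling chains of the B cell receptor were thus the most abundant of the 9 genes in each group with PRCC‐TFE3 and Cre. Gzmb was the least abundant by mean. The replicate ranges of Cd79a and Cd79b overlapped that of Cd3e in each of these groups, and the range of Gzmb lay below those of all other genes in DKO kidneys. The TPM of Cd3e differed in order from its CPM in that KI replicate 3 was above all Cre(−) kidneys on the TPM scale.

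Whether expression of PRCC‐TFE3 in the kidney epithelium goes with more lymphocyte RNA was asked by comparing KI with Cre(−) kidneys. In edgeR's quasi-likelihood framework, with p adjusted by Benjamini-Hochberg over 17011 genes and a threshold of 0.05, 5 of the 9 genes were higher in KI kidneys and none was lower, at a background of 31.6% of all genes called higher. The B cell genes rose most, Cd79a with a log2 fold change of 3.38 (SE 0.94, adjusted p = 0.00573), Ms4a1 with 3.07 (SE 1.19, adjusted p = 0.0349) and Cd79b with 2.57 (SE 0.79, adjusted p = 0.0104). The regulatory T cell gene Foxp3 rose by 1.55 (SE 0.56, adjusted p = 0.0246) and the co-receptor gene Cd4 by 1.37 (SE 0.51, adjusted p = 0.0304) on the log2 scale. The general T cell gene Cd3e, at 0.97 (SE 0.54, adjusted p = 0.138), and the cytotoxic genes Cd8a, at -0.05 (SE 0.49, adjusted p = 0.936), Cd8b1, at 1.36 (SE 0.67, adjusted p = 0.0902), and Gzmb, at 1.15 (SE 0.69, adjusted p = 0.163), did not pass the threshold. Cd4 and Cd79a were the 2 genes with no overlap between the groups, as were 28.9% of all genes in the same direction. The median log2 fold change of the 9 genes was 1.37 and that of all genes 0.03. These calls rested on KI replicate 2, without which 0 of the 9 genes were called, and their number was 3 without Cre(−) replicate 2, Cre(−) replicate 4 or KI replicate 1. Over the fits that left out 1 library the background called higher was 28.3% to 30.5%, and 28.3% without KI replicate 2. Without this kidney the log2 fold change was 1.53 for Cd79a (adjusted p = 0.156), 0.82 for Cd79b (adjusted p = 0.339), 0.13 for Ms4a1 (adjusted p = 0.937), 0.96 for Cd4 (adjusted p = 0.167) and 1.13 for Foxp3 (adjusted p = 0.14) by edgeR. Single Cre(−) kidneys also decided calls of lesser margin, as Ms4a1 was not called without replicate 1 (3.02, adjusted p = 0.0696), replicate 2 (2.98, adjusted p = 0.0748) or replicate 4 (2.83, adjusted p = 0.081). Cd4 was not called without Cre(−) replicate 2 (1.25, adjusted p = 0.0733) or replicate 3 (1.34, adjusted p = 0.0607) or without KI replicate 1 (1.36, adjusted p = 0.0599). Foxp3 was not called without Cre(−) replicate 4 (1.22, adjusted p = 0.0615) or KI replicate 1 (1.41, adjusted p = 0.0709). KI replicate 3 had the opposite influence, since Cd3e (1.38, adjusted p = 0.0346) and Cd8b1 (1.76, adjusted p = 0.0366) passed the threshold without it.

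The groups in which floxed HIF1a, HIF2a or both were combined with PRCC‐TFE3 and Cre were compared with the same 4 Cre(−) kidneys, which all 4 comparisons share. In Hif1α KO kidneys 5 genes were called higher, Cd3e, Cd4, Foxp3, Cd79a and Cd79b, at a background of 31.9%, and the same 5 had no overlap between the groups, at a background of 28.8%. Foxp3 showed the firmest difference, with a log2 fold change of 3.10 (SE 0.51, adjusted p = 7.54e-05), and Cd3e had 1.75 (SE 0.51, adjusted p = 0.00716). Cd4 had 2.14 (SE 0.48, adjusted p = 0.0012), Cd79a 3.74 (SE 0.91, adjusted p = 0.00212) and Cd79b 2.63 (SE 0.75, adjusted p = 0.00682). Cd8a, at 0.02 (SE 0.45, adjusted p = 0.975), and Gzmb, at 0.56 (SE 0.67, adjusted p = 0.489), did not pass the threshold. Ms4a1, at 2.59 (SE 1.14, adjusted p = 0.0598), and Cd8b1, at 1.39 (SE 0.63, adjusted p = 0.0646), were just outside the threshold, and without Hif1α KO replicate 2, the kidney lowest in most of these genes, they were called with 2.96 (adjusted p = 0.035) and 1.63 (adjusted p = 0.0404). Cd8b1 was also called without Cre(−) replicate 4 (1.79, adjusted p = 0.0415). In Hif2α KO kidneys 8 genes were called higher, all except Cd8a, at a background of 32.0%, and 7 had no overlap, at a background of 30.9%. The log2 fold change was 3.92 (SE 0.93, adjusted p = 0.00191) for Cd79a, 2.74 (SE 0.64, adjusted p = 0.00159) for Cd8b1 and 2.18 (SE 0.53, adjusted p = 0.00216) for Cd3e. For Foxp3 it was 2.98 (SE 0.53, adjusted p = 0.000155), for Cd79b 2.90 (SE 0.78, adjusted p = 0.00462) and for Cd4 2.52 (SE 0.50, adjusted p = 0.000461), the last of which was 1.67 without Hif2α KO replicate 1, the highest of all kidneys in Cd4. Granzyme B was called here, with 1.90 (SE 0.64, adjusted p = 0.0173), and lost the call without Hif2α KO replicate 1 (1.61, adjusted p = 0.0701) or replicate 2 (1.73, adjusted p = 0.0582). Cd8a, at 1.00 (SE 0.47, adjusted p = 0.0756), was called without Hif2α KO replicate 3 (1.38, adjusted p = 0.0178). Ms4a1, at 3.12 (SE 1.18, adjusted p = 0.0312), was not called without Hif2α KO replicate 1 (1.71, adjusted p = 0.254) or without Cre(−) replicate 1 (3.07, adjusted p = 0.0636), replicate 2 (3.03, adjusted p = 0.0691) or replicate 4 (2.89, adjusted p = 0.0737). In DKO kidneys 7 genes were called higher, all except Cd8a and Gzmb, at a background of 30.4%, and all 9 had no overlap, at a background of 30.9%. Here Cd79a had a log2 fold change of 4.07 (SE 0.94, adjusted p = 0.00157), Foxp3 3.14 (SE 0.53, adjusted p = 0.00011) and Cd3e 2.47 (SE 0.53, adjusted p = 0.00092). Cd79b had 2.95 (SE 0.78, adjusted p = 0.00453), Cd8b1 2.51 (SE 0.64, adjusted p = 0.00335) and Cd4 2.49 (SE 0.50, adjusted p = 0.000572), and below the threshold were Cd8a, at 0.93 (SE 0.47, adjusted p = 0.103), and Gzmb, at 1.55 (SE 0.66, adjusted p = 0.0565). Ms4a1, at 3.39 (SE 1.18, adjusted p = 0.0224), was not called without DKO replicate 2 (2.97, adjusted p = 0.0663), Cre(−) replicate 2 (3.29, adjusted p = 0.0541) or Cre(−) replicate 4 (3.15, adjusted p = 0.0566). The median log2 fold change of the 9 genes was 2.14 in Hif1α KO, 2.74 in Hif2α KO and 2.51 in DKO kidneys, beside 0.02, 0.02 and 0.02 over all genes.

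Some of these calls depended on the method or on which Cre(−) kidneys served as controls. Against the Cre(−) pair without a floxed allele alone, Cd79b was called in none of the groups, KI (2.31, adjusted p = 0.0816), Hif1α KO (2.36, adjusted p = 0.0706), Hif2α KO (2.65, adjusted p = 0.0505) and DKO (2.69, adjusted p = 0.0516). Ms4a1 was called against neither pair alone, with 0.107 and 0.159 as adjusted p in KI, 0.101 and 0.151 in Hif2α KO and 0.0836 and 0.128 in DKO kidneys by edgeR. The same held for Cd4 in KI kidneys (adjusted p = 0.0959 and 0.12) and for Gzmb in Hif2α KO kidneys (adjusted p = 0.0531 and 0.0638) by edgeR. Against the pair with HIF1af/f alone, Foxp3 in KI kidneys (1.10, adjusted p = 0.146) and Cd3e in Hif1α KO kidneys (1.57, adjusted p = 0.068) also lost their calls. With the pair with HIF1af/f as controls 2 of the 9 genes were thus called in KI, 4 in Hif1α KO, 6 in Hif2α KO and 6 in DKO kidneys. With the other pair the counts were 2, 4, 5 and 5. Of all genes 28.3%, 28.0%, 29.2% and 27.3% were called higher with the former pair and 28.0%, 27.0%, 28.5% and 25.9% with the other, so that the count in KI kidneys was no longer above its background. By limma on log2(TPM + 1) Ms4a1 was not called in KI (0.97, adjusted p = 0.178) or Hif2α KO kidneys (1.26, adjusted p = 0.0832). By limma on log2(TPM + 0.1) it was not called in KI kidneys (1.75, adjusted p = 0.143). Other genes gained a call by these methods. In limma with 1 and with 0.1 added, Cd8a was called in Hif2α KO (0.88, adjusted p = 0.0189, and 1.32, adjusted p = 0.021) and in DKO kidneys (0.96, adjusted p = 0.0111, and 1.48, adjusted p = 0.0112). Gzmb was called in DKO kidneys (0.42, adjusted p = 0.0144, and 1.56, adjusted p = 0.00733). Limma called Cd3e in KI kidneys as well (adjusted p = 0.0498 and 0.0212), and with 0.1 added Cd8b1 in KI (1.35, adjusted p = 0.0453) and Hif1α KO kidneys (1.55, adjusted p = 0.0161). In Hif1α KO kidneys DESeq2 called Cd8b1 (1.40, adjusted p = 0.0453) and Ms4a1 (2.57, adjusted p = 0.0268). So did edgeR in a fit of only the groups compared (adjusted p = 0.0247 and 0.0148), which also called Cd8a in DKO kidneys (0.93, adjusted p = 0.0281). Foxp3 in KI kidneys and Gzmb in all 4 groups were below the expression filter of such fits and were not tested in them. Without TMM factors, an alternative added after the data had been seen, edgeR called all 9 genes in Hif2α KO and in DKO kidneys and 7 in KI and in Hif1α KO kidneys. The background rose with these counts, since 50.2% of all genes were called higher in KI, 52.9% in Hif1α KO, 55.6% in Hif2α KO and 57.5% in DKO kidneys. It was as high in limma, with 52.0%, 53.2%, 56.3% and 58.8% when 1 was added and 53.0%, 54.2%, 57.0% and 59.3% when 0.1 was added. It was 31.2% in Hif1α KO kidneys by DESeq2 and 32.4% in the fit of only the groups compared, and in DKO kidneys 29.9% in the latter. The gain by limma and without TMM factors thus went with more calls among all genes. The calls of Cd79a, and those of Foxp3 in the HIF knockout groups, were lost in none of these alternatives.

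Whether loss of HIF1α or HIF2α in the epithelium went with a further difference in lymphocyte RNA was asked by comparing the knockout groups with KI kidneys, which these 3 comparisons share. In Hif1α KO kidneys edgeR called 0 of the 9 genes, at a background of 5.44% of all genes called in either direction and 2.57% called higher. Foxp3 was the 1 gene higher at an unadjusted p under 0.05, where the background was 11.2%, with a log2 fold change of 1.54 (SE 0.49, adjusted p = 0.0784), and also the 1 gene without overlap, where it was 8.96%. DESeq2 called this gene, with an adjusted p of 0.0227, and no other member, at a background of 9.59% in either direction and 4.51% higher by DESeq2. Limma on log2 TPM called 0. The remaining genes lay between -0.59 for Gzmb and 0.78 for Cd3e. Among them Ms4a1, Cd79a and Cd79b depended largely on KI replicate 2, as given with the marker lists below. In Hif2α KO kidneys 0 of the 9 genes were called by edgeR, DESeq2 or limma. The background was 1.39% in either direction and 0.741% higher by edgeR, and 5.80% and 3.07% by DESeq2. By limma it was 1.14% in either direction with 1 added and 0.488% with 0.1 added. At an unadjusted p under 0.05, 4 were higher, Cd3e, Cd4, Cd8b1 and Foxp3, at a background of 10.2%, and Foxp3 alone had no overlap, at a background of 9.52%. The log2 fold change of Foxp3 was 1.43 (SE 0.51, adjusted p = 0.149), that of Cd8b1 1.38 (SE 0.63, adjusted p = 0.253) and that of Cd3e 1.21 (SE 0.55, adjusted p = 0.242). In DKO kidneys edgeR called 0 of the 9 genes at a background of 12.7% in either direction and 6.53% higher, and counted 3 as higher at an unadjusted p under 0.05, Cd3e, Cd4 and Foxp3, at a background of 14.9%. The genes without overlap were 4, Cd3e, Cd4, Cd8a and Foxp3, at a background of 16.5%. Foxp3 had a log2 fold change of 1.59 (SE 0.51, adjusted p = 0.0534) and Cd3e 1.50 (SE 0.55, adjusted p = 0.0846), and DESeq2 called both (adjusted p = 0.0173 and 0.0413) and limma 0 of the 9. The background of DESeq2 was 17.1% in either direction and 8.52% higher. KI replicate 2 decided this result too, since without it edgeR called 2 of the 9 genes, Cd3e at 2.13 (adjusted p = 0.0462) and Foxp3 at 2.02 (adjusted p = 0.049), at a background of 4.09% higher. The B cell genes Ms4a1, Cd79a and Cd79b differed from KI kidneys by 0.32, 0.70 and 0.38 on the log2 scale in DKO kidneys, each less than its standard error. These values rested on the same kidney, since without KI replicate 2 they were 3.26, 2.54 and 2.13, and none of them was called. The median log2 fold change over the 9 genes was 0.07 in Hif1α KO, 1.05 in Hif2α KO and 0.98 in DKO kidneys, beside all-gene medians of -0.00, -0.01 and -0.00. These medians include KI replicate 2, on which the values of Ms4a1, Cd79a and Cd79b largely depended in each group.

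Between Hif1α KO and Hif2α KO kidneys edgeR, DESeq2 and limma called 0 of the 9 genes. The background in either direction was 0.429% by edgeR and 3.09% by DESeq2, and by limma it was below that of edgeR. Of the 9, 2 were lower in Hif1α KO kidneys at an unadjusted p under 0.05 by edgeR, Cd8b1 with a log2 fold change of -1.34 (SE 0.58, adjusted p = 0.291) and Gzmb with -1.35 (SE 0.59, adjusted p = 0.296), at a background of 14.9% in either direction. Neither gene passed the threshold, Hif1α KO and Hif2α KO kidneys overlapped for each, and Gzmb was near the smallest detectable level in most libraries. Whether the effects of both knockouts add up was tested by their interaction, for which edgeR, DESeq2 and limma called 0 of the 9 genes, at a background of 0% by edgeR, and edgeR counted 0 at an unadjusted p under 0.05, at a background of 5.95%. The interaction was -1.38 (SE 0.68, adjusted p = 0.864) for Foxp3 on the log2 scale, and for the other 8 genes it lay between -0.80 (Cd4) and 0.74 (Ms4a1). Over the fits that left out 1 library, the values of these 8 genes crossed 0. Foxp3 differed by 0.11 (SE 0.45, adjusted p = 0.933) between Hif1α KO and Hif2α KO kidneys. DKO kidneys were not tested against either single knockout.

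**Figure D2:**
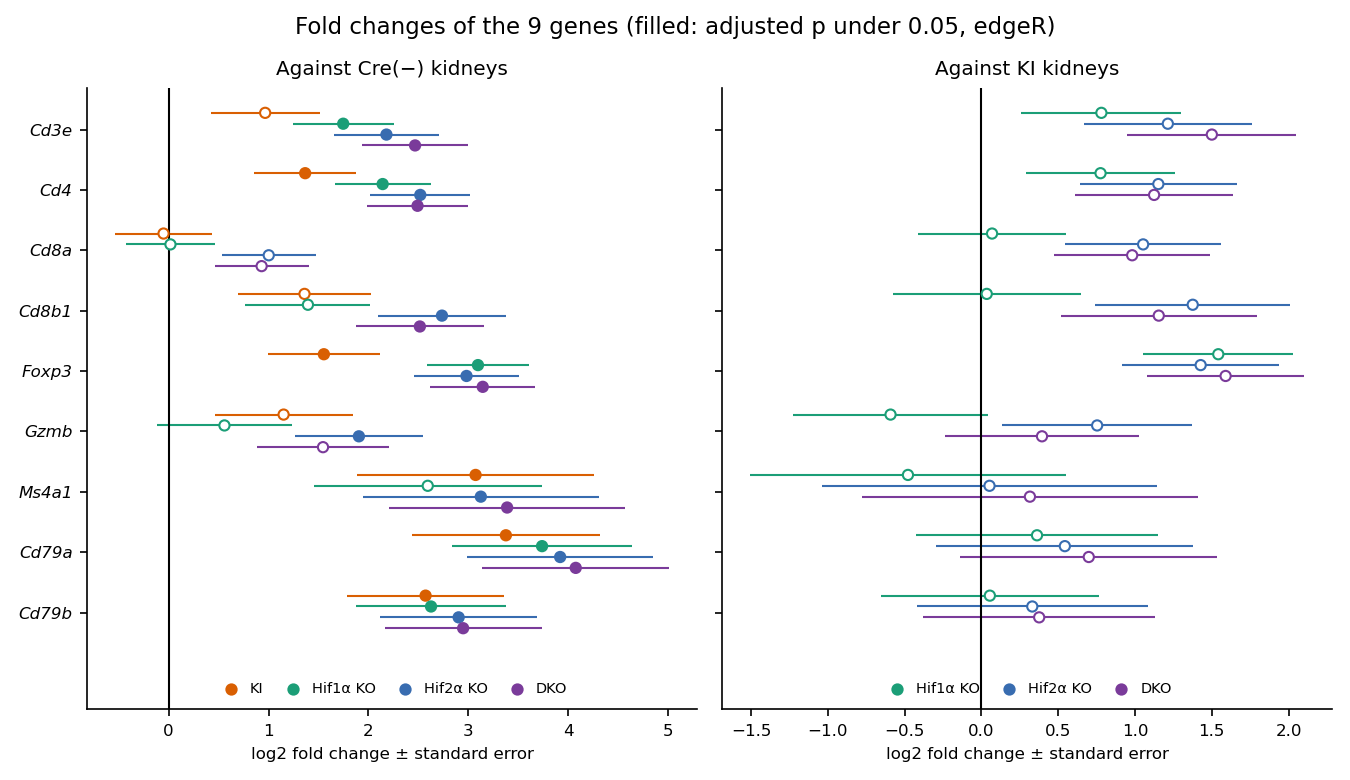
Log2 fold change with its standard error for each of the 9 genes, against the 4 Cre(−) kidneys on the left and against the 3 KI kidneys on the right. Filled points passed the threshold of edgeR, which holds for 25 of 36 values on the left and for none on the right.

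Other genes of the same cell types were counted in lists, beside the 31.6% of all genes called higher in KI relative to Cre(−) kidneys. Of 20 T cell receptor and T lineage genes, 8 rose in KI kidneys and 1 fell, with a median log2 fold change of 0.94. The higher ones included the adhesion molecule Cd2 (2.30, SE 0.74, adjusted p = 0.014), the kinase Lck (1.27, SE 0.42, adjusted p = 0.0166) and the transcription factor Tcf7 (1.94, SE 0.33, adjusted p = 0.000115). The lower one was Bcl11b (-2.72, SE 0.36, adjusted p = 9.85e-06), which had 20.4, 15.5, 13.8 and 14.1 CPM in Cre(−) kidneys and 3.05, 2.48 and 1.71 CPM in KI kidneys. None of the listed CD3 and T cell receptor chain genes was called by edgeR. Cd3d was at -0.21 (adjusted p = 0.669), Trac at 0.14 (adjusted p = 0.838) and Cd247 at 0.61 (adjusted p = 0.104). Cd3g was at 1.02 (adjusted p = 0.124), Trbc1 at 1.49 (adjusted p = 0.0965) and Trbc2 at 0.86 (adjusted p = 0.211). Of 10 regulatory T cell and checkpoint genes, 5 were higher, among them Ctla4 (4.59, SE 1.29, adjusted p = 0.00597) and Pdcd1 (2.51, SE 0.71, adjusted p = 0.00634), and of 12 cytotoxic and NK genes tested 2 were higher, Eomes (1.37, SE 0.48, adjusted p = 0.0226) and Tbx21 (1.69, SE 0.69, adjusted p = 0.0452). KI and Cre(−) kidneys overlapped for Ctla4 and for Tbx21. Of 16 B cell genes, 12 were higher and 1, the complement receptor gene Cr2 (-1.36, SE 0.42, adjusted p = 0.0116), was lower, with a median of 2.68. Pax5, the transcription factor of B cell identity, had 4.56 (SE 1.20, adjusted p = 0.00388) and Blk, a kinase of the B cell receptor pathway, 4.07 (SE 1.16, adjusted p = 0.00683). Of 10 plasma cell genes 3 were higher, including Ighm (3.39, SE 0.87, adjusted p = 0.00338) and Igkc (2.29, SE 0.54, adjusted p = 0.00168), which encode immunoglobulin chains. Of 10 lymphoid homing genes tested 5 were higher, led by the B cell chemokine Cxcl13 (4.51, SE 0.55, adjusted p = 3.88e-06). The shares of the regulatory, B cell and homing lists were above that background, those of the T lineage and plasma cell lists were near it and that of the cytotoxic list was below it. The lists were chosen with earlier results of these data known, so these shares are descriptive only. Without KI replicate 2, the called genes numbered 3 of 20 in the T lineage list, 3 of 10 in the regulatory list, 0 of 12 in the cytotoxic list, 4 of 16 in the B cell list and 2 of 10 in the homing list, and still 3 of 10 in the plasma cell list. In that fit 54.7% of all genes were called in either direction and 28.3% higher, and no share of these lists was clearly above the latter. In the cytotoxic list 1 gene was called without Cre(−) replicate 1, 2 or 4 and 0 without replicate 3, and in the homing list 3 were called without Cre(−) replicate 1 or 2. Blnk, with 19.9, 23.5, 22.6 and 25.1 CPM, and Cr2, with 4.11, 3.59, 4.43 and 3.41 CPM, were present in Cre(−) kidneys already. Ccl19 and Ccl21a, in the homing list, have near-identical copies in the genome among which reads can be split, and their values are uncertain.

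General and neighbouring cell types were counted in the same way in KI against Cre(−) kidneys. All 6 pan-leukocyte genes were higher, including Ptprc, which encodes CD45 (1.03, SE 0.42, adjusted p = 0.0463), and without KI replicate 2 the number was 4. Of 7 macrophage genes 6 were higher, such as C1qa (2.23, SE 0.17, adjusted p = 3.56e-08). Cd68 stood apart from the other higher ones, at 7.87 (SE 0.25, adjusted p = 1.21e-11), since these lay between 1.52 (Adgre1) and 2.34 (C1qc). The macrophage receptor gene Csf1r went the other way, at -0.21 (SE 0.09, adjusted p = 0.0603), and was not called. Among 8 dendritic cell genes, 2 were higher, Batf3 (0.64) and Itgax (0.93), and 2 lower, Clec9a (-1.46) and Zbtb46 (-0.38), and 2 were called without Cre(−) replicate 3 or 4 or KI replicate 2 or 3. Of 6 mast cell genes 2 could be tested, Tpsb2 (2.90) being higher and Ms4a2 (-2.44) lower, with 1 call without Cre(−) replicate 2 or 3 or KI replicate 2, and the defining proteases Cpa3 and Mcpt4 were at most 0.431 and 0.323 CPM in any library. The NK cell gene Ncr1 was at most 0.244 CPM in any library. All 6 tubule genes were lower, at a background of 29.3% called lower, with a median of -2.87. The adipocyte list, 4 of whose 6 genes were called higher, was dominated by KI replicate 2, without which 0 were called. Summed over the 6 genes, adipocyte RNA was 95.4, 6.16, 14.8 and 22.5 CPM in Cre(−), 42.2, 1742 and 124 in KI, 56.4, 254, 24.5 and 19.6 in Hif1α KO, 12.2, 56.8 and 177 in Hif2α KO and 168, 12.4 and 99.5 CPM in DKO kidneys, and its most abundant gene, Cfd, reached 1279 CPM in KI replicate 2. None of the 6 adipocyte genes was at 0 in that library. The same kidney had the highest sum of the B cell list, 82.8, 268 and 51.5 CPM in KI replicates 1 to 3, against 52.4, 55.0, 58.5 and 56.8 CPM in Cre(−) kidneys. In contrast, Hif1α KO replicate 2, next highest in adipocyte RNA, had the lowest B cell sum of its group, 69.9 CPM. The part of adipose tissue in the lymphocyte RNA of KI replicate 2 was not tested.

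**Figure D3:**
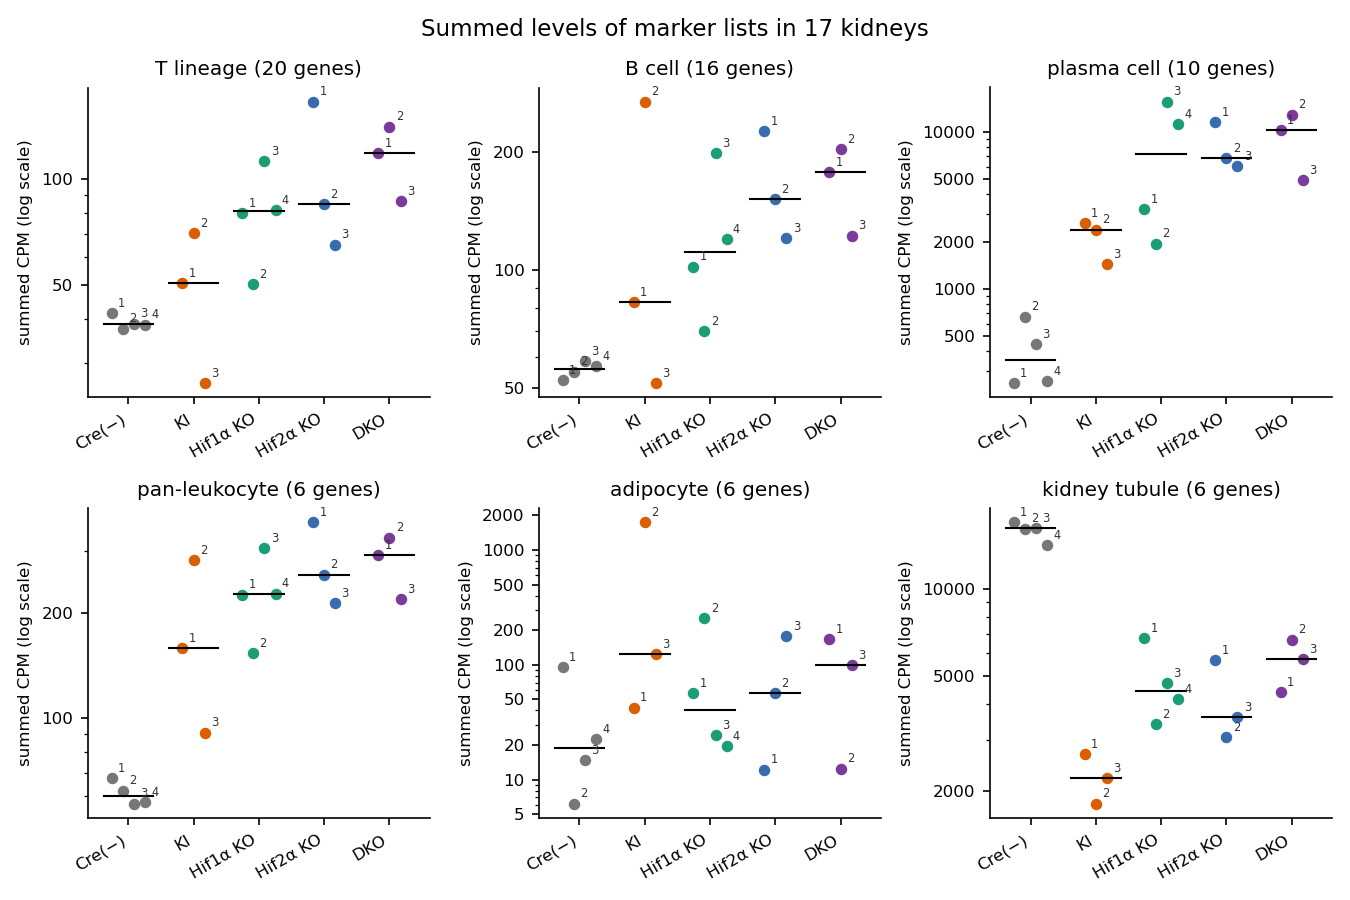
CPM summed over the genes of 6 marker lists (log scale) in each of 17 kidneys, with replicate numbers and a bar at the group median. KI replicate 2 is the highest library in the B cell and adipocyte panels and the lowest in the tubule panel.

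The lists were also counted in HIF knockout kidneys against Cre(−) kidneys, where the background called higher was 31.9% in Hif1α KO, 32.0% in Hif2α KO and 30.4% in DKO kidneys. Of the 20 T lineage genes, 15 were higher in Hif1α KO, 19 in Hif2α KO and 19 in DKO kidneys, and the 1 that was lower in each was Bcl11b. Of the 16 B cell genes, 13, 14 and 14 were higher and 2, 1 and 0 lower in the same groups. Plasma cell genes followed with 8, 7 and 9 of 10 higher, regulatory and checkpoint genes with 9, 8 and 8 of 10, homing genes with 7, 8 and 8 of 10, and cytotoxic genes with 4, 8 and 7 of 12. Each of these shares was above its background except that of the cytotoxic genes in Hif1α KO kidneys, which was near it. Genes of other cells were called as well, 6, 6 and 6 of 6 pan-leukocyte and 6, 6 and 6 of 7 macrophage genes being higher and 4, 5 and 4 of 6 tubule genes lower. The background called lower was 30.1%, 29.9% and 27.9% in the same groups. The calls were thus not confined to lymphocyte genes. Ctla4, a checkpoint receptor of regulatory T cells, had a log2 fold change of 6.51 (SE 1.14, adjusted p = 0.000142) in Hif1α KO kidneys. Without Hif2α KO replicate 1, the kidney highest in T lineage RNA, the cytotoxic count there was 1 and the homing count 4, and without Cre(−) replicate 3 or 4 the cytotoxic count was 5. The cytotoxic count in DKO kidneys was 4 without Cre(−) replicate 3 or 4 or DKO replicate 2, and the homing count in Hif1α KO kidneys was 4 without Cre(−) replicate 4. Over such fits the background called higher was 29.6% to 31.8% in Hif1α KO, 28.4% to 31.1% in Hif2α KO and 26.3% to 29.3% in DKO kidneys. Ighm, which encodes the heavy chain of IgM, stood at 18.1, 206, 116 and 16.0 CPM in Cre(−), 1221, 919 and 653 in KI, 1325, 677, 7891 and 5376 in Hif1α KO, 6215, 3880 and 2890 in Hif2α KO and 3747, 6611 and 2674 CPM in DKO kidneys. Every kidney with PRCC‐TFE3 and Cre was above every Cre(−) kidney in Ighm.

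Against KI kidneys the share of all genes called in either direction differed between the groups, with 12.7% in DKO, 5.44% in Hif1α KO and 1.39% in Hif2α KO kidneys. List counts are to be read against these shares. With 1 library left out they ran over 4.18% to 13.2%, 1.61% to 6.89% and 0.0751% to 4.96%, and by DESeq2 they were 17.1%, 9.59% and 5.80%. By limma they were 10.1%, 3.71% and 1.14% with 1 added and 9.34%, 3.24% and 0.488% with 0.1 added. In DKO kidneys all 20 T lineage genes had a positive log2 fold change, 9 were called higher, at a background of 6.53%, and the median was 1.23. Among them were the CD3 delta gene Cd3d (1.68, SE 0.41, adjusted p = 0.0176), the costimulatory receptor gene Cd28 (2.08, SE 0.61, adjusted p = 0.0378) and Bcl11b (1.72, SE 0.37, adjusted p = 0.00968). Bcl11b differed from the other T lineage genes called here, which were all called higher in DKO than in Cre(−) kidneys. It was called lower than in Cre(−) kidneys in both KI and DKO kidneys. Whether its rise from KI to DKO kidneys came from T cells was not tested. The count of T lineage calls was 4 without KI replicate 1, 1 without KI replicate 3, 3 without DKO replicate 1, 1 without DKO replicate 2 and 4 without DKO replicate 3, and 9 without KI replicate 2. Of the B cell genes 1 was called, Blnk (0.61, SE 0.11, adjusted p = 0.00379), with a list median of 0.31, and 2 were called without KI replicate 2. Plasma cell genes had a median of 1.87 and 3 calls, Jchain (2.75, SE 0.71, adjusted p = 0.0223), Igkc (2.17, SE 0.59, adjusted p = 0.027) and Ighg2b (3.12, SE 0.89, adjusted p = 0.0341), of which 1 was left without DKO replicate 1 and none without KI replicate 3 or DKO replicate 2. In the cytotoxic list Klrk1 (1.78, SE 0.39, adjusted p = 0.0103) and Xcl1 (1.87, SE 0.55, adjusted p = 0.0381) were called. They had 1 call without KI replicate 3 or any DKO kidney. In the regulatory list 0 were called by edgeR, 3 being higher at an unadjusted p under 0.05 (background 14.9%), 2 by DESeq2, 2 by limma on log2(TPM + 1), 0 by limma on log2(TPM + 0.1), and 1 by edgeR without KI replicate 2. Cxcl13 was lower in DKO kidneys (-2.49, SE 0.53, adjusted p = 0.00945), with 9.31, 74.2 and 65.4 CPM in KI and 8.23, 9.43 and 8.79 CPM in DKO kidneys. The groups overlap here, and without KI replicate 2 the homing list had 4 calls. Of 8 dendritic cell genes 5 were higher, among them Clec9a (1.90, SE 0.40, adjusted p = 0.00901) and Xcr1 (2.24, SE 0.61, adjusted p = 0.027), a count that was 3 without KI replicate 2, 2 without KI replicate 3 and 1 without DKO replicate 2 or 3. The tubule genes rose as well, 5 of 6 being called (1 without KI replicate 2 or 3 or DKO replicate 2 or 3, and 3 without DKO replicate 1), while 0 of 6 adipocyte genes were called by edgeR, DESeq2 or limma, 2 being lower at an unadjusted p under 0.05 (background 14.2%). Of the pan-leukocyte genes 0 were called by edgeR, DESeq2 or limma, also by edgeR at an unadjusted p under 0.05, with a median of 0.75, and 4 by edgeR without KI replicate 2. Of the macrophage genes Adgre1 (0.76) was higher and Cd68 (-1.39) lower. Of both, 1 was called without KI replicate 1 or 3 or DKO replicate 2 or 3. The 2 mast cell genes tested were not called by edgeR, DESeq2 or limma, with 0 at an unadjusted p under 0.05.

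Loss of HIF1α or of HIF2α alone was compared with KI kidneys in the same lists. In Hif1α KO kidneys 0 of 20 T lineage genes were called by edgeR, 1 by DESeq2 and 0 by limma, 9 were higher at an unadjusted p under 0.05, at a background of 11.2%, and the median was 0.85, and edgeR called 2 without Hif1α KO replicate 2. In Hif2α KO kidneys 0 were called by edgeR, 4 by DESeq2 and 0 by limma, 17 were higher at an unadjusted p under 0.05, at a background of 10.2%, and the median was 1.24, and edgeR called 1 without KI replicate 1 or Hif2α KO replicate 3. T lineage genes thus had a positive log2 fold change in both groups, all 20 of them in each, without passing the threshold. The B cell genes had a median of -0.34 in Hif1α KO kidneys, with 0 calls by edgeR, DESeq2 or limma, 0 at an unadjusted p under 0.05 and 1 by edgeR without KI replicate 1. In Hif2α KO kidneys their median was 0.31, and the adaptor gene Blnk (0.56, SE 0.11, adjusted p = 0.0233) was called, a call lost without KI replicate 3 or Hif2α KO replicate 3. KI replicate 2, with the highest B cell sum, weighed on these values, and without it Ms4a1, Cd79a and Cd79b were 2.46, 2.21 and 1.81 in Hif1α KO and 3.00, 2.39 and 2.08 in Hif2α KO kidneys, none of them called. The values of these B cell genes against KI kidneys therefore depended largely on 1 kidney. In Hif1α KO kidneys the checkpoint gene Havcr2 (0.91, SE 0.20, adjusted p = 0.021), the NK receptor gene Klrk1 (1.36, SE 0.37, adjusted p = 0.0456) and the dendritic cell gene Flt3 (1.46, SE 0.39, adjusted p = 0.0426) were called in their lists. These calls were lost without KI replicate 3, Hif1α KO replicate 1 or Hif1α KO replicate 3, those of Havcr2 and Flt3 also without KI replicate 1, those of Klrk1 and Flt3 also without Hif1α KO replicate 4, and that of Flt3 also without KI replicate 2. Plasma cell genes had a median of 1.65 in Hif1α KO and 1.45 in Hif2α KO kidneys, with 0 calls by edgeR and limma in each, 3 and 1 calls by DESeq2, and 5 higher in each at an unadjusted p under 0.05, where the same backgrounds apply. Immunoglobulin genes make up much of this list, and in Hif1α KO against KI kidneys edgeR called 3 of its genes without Hif1α KO replicate 2 and 1 without KI replicate 1. Between Hif1α KO and Hif2α KO kidneys edgeR and limma called 0 of the T lineage and 0 of the B cell genes, 0 and 2 being lower at an unadjusted p under 0.05 by edgeR, at a background of 14.9% in either direction, and DESeq2 called 0 and 1.

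Tubule, macrophage, adipocyte and pan-leukocyte genes were followed in the same comparisons. At an unadjusted p under 0.05 the background was 11.2% higher and 10.9% lower in Hif1α KO and 10.2% higher and 8.98% lower in Hif2α KO kidneys. Of all genes, edgeR called 2.57% higher in Hif1α KO and 0.741% higher in Hif2α KO kidneys. The shares that were higher without overlap were 8.96% and 9.52%. In Hif1α KO kidneys 3 of 6 tubule genes were higher than in KI kidneys, Slc34a1 (1.54, SE 0.42, adjusted p = 0.0459), Umod (1.48, SE 0.27, adjusted p = 0.01) and Cdh16 (0.37, SE 0.09, adjusted p = 0.0297), and all 6 had no overlap. Of these 1 was called without KI replicate 2 or 3 or Hif1α KO replicate 1 or 4, and 0 in a fit of only the groups compared. Of 7 macrophage genes Adgre1 (0.70, SE 0.18, adjusted p = 0.0364) and Mrc1 (0.60, SE 0.13, adjusted p = 0.0177) were higher and Cd68 (-0.93, SE 0.19, adjusted p = 0.0166) was lower. They had 1 call in a fit of only the groups compared and 0 without Hif1α KO replicate 1 or 3. Of 6 adipocyte genes 0 were called by edgeR or limma and 1 by DESeq2, 3 being lower at an unadjusted p under 0.05, with a median of -2.68. Tubule genes were therefore called higher in part. In Hif2α KO kidneys Umod (1.21, SE 0.28, adjusted p = 0.0489) was the 1 tubule gene called. That call was lost without KI replicate 2 or 3 or any Hif2α KO kidney, and 5 of the 6 were higher at an unadjusted p under 0.05. Of the macrophage genes 0 were called by edgeR, 3 by DESeq2, 1 by limma on log2(TPM + 1), 0 by limma on log2(TPM + 0.1) and 1 by edgeR without KI replicate 2. At an unadjusted p under 0.05, 4 were higher and 1 was lower. The adipocyte genes had 0 calls by edgeR, DESeq2 or limma, 2 being lower at an unadjusted p under 0.05, with a median of -2.46. The adipocyte medians of both groups are relative to KI kidneys of 42.2, 1742 and 124 CPM in sum, of which replicates 1 and 3 lay within the range of the Hif1α KO and of the Hif2α KO kidneys. Only KI replicate 2 was above them, so that lower adipocyte RNA is not shown for these groups. The pan-leukocyte genes had 0 calls by edgeR, DESeq2 or limma in either group, 1 being higher in each at an unadjusted p under 0.05, and medians of 0.36 in Hif1α KO and 0.69 in Hif2α KO kidneys. How far these differences in the make-up of the kidneys bear on the lymphocyte genes was not tested.

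**Figure D4:**
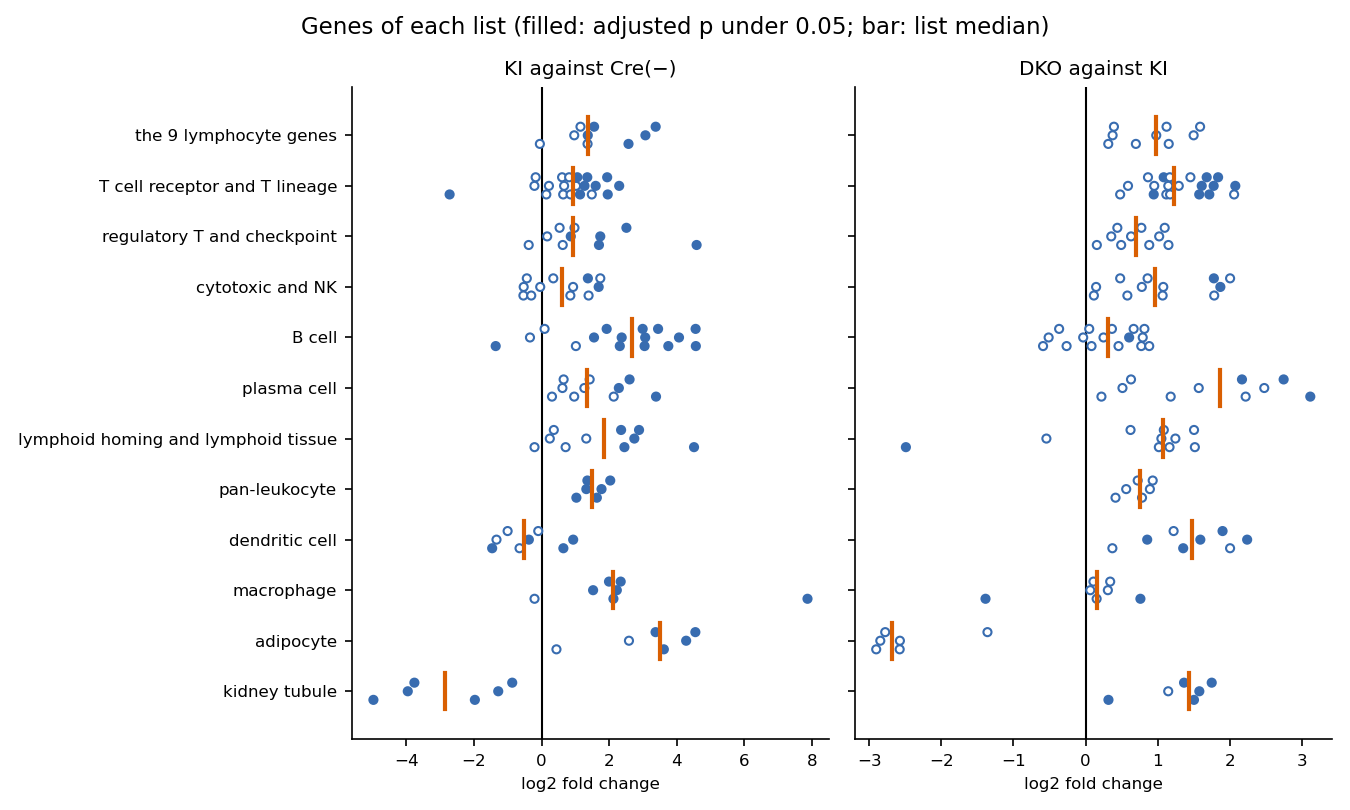
Log2 fold change of each tested gene of the 9 lymphocyte genes and of 11 marker lists, in KI against Cre(−) kidneys on the left and in DKO against KI kidneys on the right. Filled points passed the threshold of edgeR and the bar is the list median, which lies above 0 for every list of lymphocyte genes in both panels.

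To set lymphocyte genes against leukocytes in general, Cd3e and Cd79b were divided by Ptprc, the CD45 gene of leukocytes, as the log2 ratio of CPM with 0.1 added to each. For Cd3e the ratio was -3.56, -3.32, -3.86 and -3.68 in Cre(−), -3.44, -3.79 and -3.85 in KI, -3.01, -3.76, -3.51 and -3.52 in Hif1α KO, -3.02, -3.58 and -3.22 in Hif2α KO and -3.26, -2.85 and -3.58 in DKO kidneys. The groups overlapped, and the HIF knockout groups were not tested against Cre(−) kidneys. By an exact permutation test (two-sided), the mean ratio of Cd3e in KI kidneys differed from that in Cre(−) kidneys by -0.09 (p = 0.686). Against KI kidneys the exact permutation test gave a difference of 0.24 in Hif1α KO (p = 0.343), 0.42 in Hif2α KO (p = 0.2) and 0.46 in DKO kidneys (p = 0.2). For Cd79b the ratio was -4.67, -3.84, -3.53 and -3.68 in Cre(−), -3.26, -2.00 and -3.69 in KI, -3.35, -3.43, -2.42 and -2.93 in Hif1α KO, -2.74, -3.00 and -2.57 in Hif2α KO and -2.75, -2.77 and -3.69 in DKO kidneys. KI replicate 2 was the highest of all and Cre(−) replicate 1 the lowest. KI replicates 1 and 3 both lay below the KI mean of -2.98, toward the Cre(−) mean of -3.93. The difference between these means thus rested in part on KI replicate 2. The same exact permutation test gave 0.95 for KI against Cre(−) kidneys (p = 0.171), and -0.05 (p = 0.914), 0.21 (p = 0.8) and -0.09 (p = 1) for Hif1α KO, Hif2α KO and DKO against KI kidneys. The smallest p that such a test allows is 0.0571 for 4 against 3 kidneys and 0.1 for 3 against 3, so none of these comparisons could pass 0.05, and the p-values over this family of 8 were not adjusted.

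**Figure D5:**
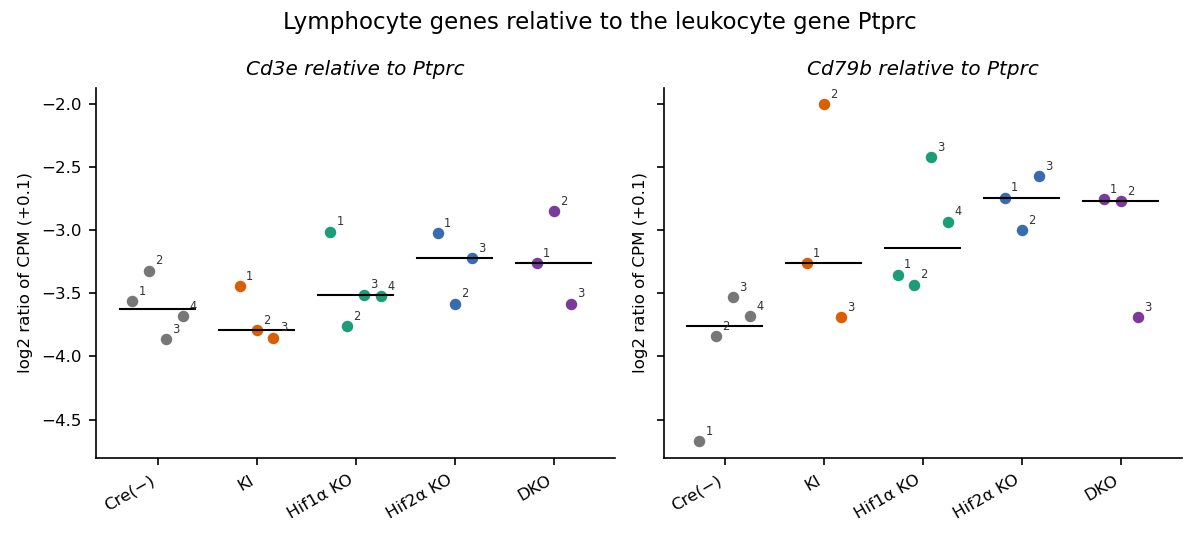
Log2 ratio of Cd3e (left) and Cd79b (right) to Ptprc in each of 17 kidneys, with replicate numbers and a bar at the group median. The groups overlap for Cd3e, and for Cd79b the KI kidneys span most of the range.

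How the genes varied among kidneys of the same group was described by correlating the deviations of log2 CPM from the group means over the 17 libraries. Pairs of the B cell genes Ms4a1, Cd79a and Cd79b had r from 0.897 to 0.969 (3 pairs, median 0.934), and pairs of the T cell genes Cd3e, Cd4, Cd8a and Cd8b1 from 0.778 to 0.889 (6 pairs, median 0.826). Pairs of a T with a B cell gene had r from 0.662 to 0.878 (12 pairs, median 0.794), so that kidneys high in T cell genes for their group were mostly high in B cell genes too. Foxp3 and Gzmb were looser, Foxp3 having r from 0.318 with Cd8b1 to 0.773 with Cd79a and Gzmb from 0.424 with Cd4 to 0.730 with Cd79b. Between them r was 0.445. Of all tested genes the 5 most like Cd3e were Rasgrp1 (r = 0.960), Psmb9 (r = 0.958), Chst3 (r = 0.956), Rnase6 (r = 0.946) and Cxcr3 (r = 0.944). Rasgrp1 encodes an activator of Ras in T cells, Psmb9 an immunoproteasome subunit and Cxcr3 a chemokine receptor of activated T cells. Those most like Cd79b were Fcho1 (r = 0.980), Cd37 (r = 0.975), Prkcb (r = 0.969), Bank1 (r = 0.964) and Zfp831 (r = 0.963). Cd37 and Bank1 are B cell genes and Prkcb encodes a kinase of the B cell receptor pathway. Without KI replicate 2 these correlations were 0.935 to 0.958 for Cd3e and 0.945 to 0.970 for Cd79b. All genes of a library share its RNA sample and scaling factor, which bears on every such correlation.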

How the data were processed

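Kidney RNA of 17 mice in 5 genotype groups was analyzed. The authors trimmed reads with Trim Galore 0.6.6 and cutadapt 2.5, aligned them with STAR 2.7.9a and estimated transcript abundance with RSEM. The methods name a human assembly, and an annotation from either species, whereas the deposited tables list mouse Ensembl transcripts. The deposited expected counts were not normalized between libraries, and the deposited TPM had been scaled by the authors to transcript length and library total.

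Of 119353 transcripts, 116770 (97.8%) matched the mouse annotation GENCODE M21, and these held 99.04% to 99.24% of the counts in each library. Expected counts were summed to 35971 genes and rounded. Genes were tested with edgeR 4.0.16 in R 4.3.3 (TMM, filterByExpr with a minimum count of 10, glmQLFit and glmQLFTest) in 1 fit of the 17 libraries with a coefficient per group. The 17011 genes that passed the filter were tested in 9 contrasts, and p-values were adjusted by Benjamini-Hochberg over all of them in each contrast. A gene was called at an adjusted p under 0.05. CPM used TMM-scaled library sizes. Groups did not overlap where every library of one was above every library of the other.

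The genes that may be named were the 9 members, Hif1a and Epas1, the genes of the marker lists, and the 5 genes most correlated with Cd3e and with Cd79b (log2 CPM, prior count 2). The lists were T cell receptor and T lineage (20 genes), regulatory T and checkpoint (10), cytotoxic and NK (14), B cell (16), plasma cell (10), lymphoid homing (11), pan-leukocyte (6), dendritic cell (8), macrophage (7), mast cell (6), adipocyte (6) and kidney tubule (6). The members and lists were chosen with earlier results of these data known. Not every listed gene is named in the text, and 1 is withheld from it.

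Alternatives were DESeq2 1.42.0, DESeq2 size factors in edgeR, no filter, a minimum absolute log2 fold change of 1, only the groups compared, a replicate block, either Cre(−) pair alone, limma 3.58.1 on log2 TPM with 1 or 0.1 added, each library left out and, added after seeing the data, no TMM factors. For the ratio to Ptprc they were TPM in place of CPM and 0.5 in place of 0.1 added to each value. Python 3.11.15 with pandas 2.3.3, scipy 1.17.1 and matplotlib 3.10.9 served for tables and plots. The scripts were tested on simulated data.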

Additional observations from a re-analysis of the deposited data

How the results depend on the processing

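None of the 25 called member values changed direction under any of 453 alternative values. Apart from leaving out libraries, 732 of 793 alternative log2 fold changes of the 9 genes kept their direction and their side of the threshold, and 83 of 89 counts of called genes stayed within 1.5 times their value. The counts that moved by more than 1.5 times were those of Hif1α KO against KI kidneys, with 1 gene called by DESeq2, of DKO against KI kidneys, with 2 by DESeq2 and 1 without TMM factors, of KI against Cre(−) kidneys, with 2 against the Cre(−) pair with HIF1af/f alone and 2 against the pair without a floxed allele alone, and of Hif2α KO against Cre(−) kidneys, with 5 against the latter pair. Values that reversed were not called in either fit. Cd8a in KI against Cre(−) kidneys was 0.30 without TMM factors, 0.24 and 0.40 by limma on log2 TPM with 1 or 0.1 added, and 0.33 against the pair without a floxed allele, and in Hif1α KO against Cre(−) kidneys it was -0.27 against the pair with HIF1af/f. With 1 or 0.1 added, limma gave -0.0396 and -0.0689 for Foxp3 in Hif1α KO against Hif2α KO kidneys and 0.0790 and 0.15 for Cd8a in the interaction, and with 0.1 added 0.24 for Ms4a1 in Hif1α KO against KI kidneys. Cd79b in the interaction was 0.0120 without TMM factors, and the ratio of Cd3e to Ptprc in KI against Cre(−) kidneys was 0.10 on TPM. The cause was not tested.

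Replicate numbers occur in all groups, but over 25 pairs the correlation of same-numbered kidneys ran from -0.223 to 0.249, so the numbers do not pair the samples. With the replicate block, 4 genes were called in KI, 5 in Hif1α KO, 7 in Hif2α KO and 6 in DKO kidneys against Cre(−) kidneys and 0 elsewhere, with Ms4a1 losing its call in KI, Hif2α KO and DKO kidneys, and the block reversed Ms4a1 in Hif1α KO against KI kidneys (0.12) and Cd79a in Hif1α KO against Hif2α KO kidneys (0.0476).

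Leaving out each library in turn, the called genes numbered 0 to 7 of 9 in KI against Cre(−) kidneys and 0 to 2 in DKO against KI kidneys. Log2 fold changes crossed 0 for Cd8a in KI (-0.41 to 0.20) and Hif1α KO (-0.13 to 0.27) against Cre(−) kidneys. In Hif1α KO against KI kidneys they did so for Cd8a (-0.18 to 0.43), Cd8b1 (-0.36 to 1.07), Gzmb (-0.98 to 0.0445), Ms4a1 (-1.26 to 2.46), Cd79a (-0.24 to 2.21) and Cd79b (-0.54 to 1.81), in Hif2α KO against KI kidneys for Ms4a1 (-1.36 to 3.00), Cd79a (-0.14 to 2.39) and Cd79b (-0.19 to 2.08), and in DKO against KI kidneys for Ms4a1 (-0.24 to 3.26) and Cd79b (-0.13 to 2.13). In Hif1α KO against Hif2α KO kidneys they did so for Cd3e (-0.71 to 0.28), Cd4 (-0.69 to 0.47), Foxp3 (-0.10 to 0.43), Ms4a1 (-1.31 to 0.88), Cd79a (-0.78 to 0.50) and Cd79b (-0.87 to 0.24), and in the interaction for Cd3e (-1.12 to 0.22), Cd4 (-1.22 to 0.0470), Cd8a (-0.51 to 0.59), Cd8b1 (-1.29 to 0.32), Gzmb (-0.40 to 0.62), Ms4a1 (-2.20 to 2.16), Cd79a (-2.05 to 0.47) and Cd79b (-1.76 to 0.58). The ratio to Ptprc crossed 0 for Cd3e in KI against Cre(−) kidneys (-0.217 to 0.00596) and for Cd79b in Hif1α KO (-0.405 to 0.439), Hif2α KO (-0.144 to 0.700) and DKO (-0.441 to 0.403) against KI kidneys. Foxp3 kept its direction in every comparison with Cre(−) or KI kidneys.

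Without TMM factors, an alternative chosen after seeing the data, the all-gene median shifted by 0.34 in KI, 0.36 in Hif1α KO, 0.44 in Hif2α KO and 0.46 in DKO against Cre(−) kidneys and by 0.11 in DKO against KI kidneys. The share of calls that were higher became 74.1% in place of 51.9%, 76.2% in place of 51.5%, 79.1% in place of 51.7% and 81.6% in place of 52.1% in these groups against Cre(−) kidneys, 79.6% in place of 53.4% in Hif2α KO and 74.6% in place of 51.3% in DKO against KI kidneys, and 59.7% in place of 76.7% in Hif1α KO against Hif2α KO kidneys. Log2 fold changes therefore depend on the scaling.

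Depth limits the genes of low level most. A gene of 3 counts lies at 0.117 to 0.206 CPM, and Gzmb was at or below that level in several libraries, so that its absence cannot be told from a low level. With 3 or 4 kidneys a group, genes that differ several times over between kidneys of a group, such as Ms4a1 and Cd79a, had wide standard errors, and a failed call of theirs does not show that groups were equal. List counts kept within 1.5 times their value in 1013 of 1157 alternatives and 783 of 884 fits that left out 1 library.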

Other observations

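The 9 genes differed in how their counts were divided among transcripts. Cd79a, Cd8b1 and Gzmb had counts from 1 annotated transcript each, and Cd79b had 99.1% of its counts, summed over the 17 libraries, in 1 of its transcripts. For Cd4 1 protein-coding transcript held 97.6% of the counts and for Cd3e 87.7%, with 10.8% of the Cd3e counts in a transcript that retains an intron. Cd8a was divided between 2 protein-coding transcripts (49.6% and 34.4%), with 16.0% in a transcript that retains an intron. Foxp3 was spread most widely, over 9 transcripts with counts, the leading ones holding 41.8% and 29.5%. For Ms4a1, transcripts that retain an intron held 11.6% and 3.5% of the counts. Shares among transcripts of a gene are estimates from short reads and were not compared between groups.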
